A study of Mus musculus with 4 samples.

Results

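Integrins are paired alpha and beta receptors through which basal keratinocytes hold to the extracellular matrix and sense it. The 10 genes described here are 8 integrin subunits outside the hemidesmosome (Itgb1, Itga2, Itga3, Itga9, Itgav, Itgb5, Itgb6 and Itgb8), the integrin-linked pseudokinase gene Ilk and Fermt1, which encodes kindlin-1. They were taken by gene symbol from the platform annotation, out of 18193 genes with a named probe set on the array. A probe set is a group of short array probes read as 1 value. Of the 10 members 9 had at least 1 named probe set, 26 in all. No probe set carried the symbol Fermt1, which was not analysed here.

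The beta1 subunit joins several alpha subunits: in the epidermis alpha2beta1 binds collagen, alpha3beta1 binds laminins and alpha9beta1 binds tenascin and fibronectin. The alphav subunit joins beta5, beta6 and beta8, and the pairs alphavbeta6 and alphavbeta8 are known to release TGF-beta from its latent complex. Inside the cell, kindlins and talin bind the beta tails, and Ilk links beta tails to actin in a complex with PINCH and parvin.

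The study measured expression in basal cells from tail epidermis of CD-1 mice on 4 Affymetrix mouse arrays. InvCREER mice (InvCREER/RosaYFP, 2 arrays) carried a tamoxifen-activated Cre under the involucrin promoter and had 10 ug of tamoxifen, while K14CREER mice (K14CREER/RosaYFP, 2 arrays) carried it under the keratin 14 promoter and had 1 ug. In both lines Cre switched on a YFP reporter, and live cells were sorted for YFP, for strong alpha6 integrin staining and for lack of CD34, so an integrin was itself part of the gate in both. The dose differed with the line and cannot be told apart from it. The titles state 3.5 days after induction and the treatment protocol 4 days. Age, pooling and whether a line's arrays stem from different animals were not given, so p-values cover the spread between arrays. The InvCREER arrays differ in the sex-linked genes Xist and Uty, given below, so they were not repeats of 1 sample. The spread between the K14CREER arrays may be technical. In such sorted samples fewer cells of a type and less RNA per cell cannot be told apart.

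The values are log2 RMA values, and a difference is InvCREER minus K14CREER with the standard error (SE) from limma. A gene is read from its probe set with the highest mean, and a probe set was tested where its mean over the 4 arrays reached 5.42, the median of all probe sets. Calls were made where the p adjusted by Benjamini-Hochberg over all 22519 tested probe sets was under 0.05. Krt14, the basal keratin gene, was at 13.82 and 13.85 in InvCREER and 14.14 and 14.17 in K14CREER, and the gate's Itga6 at 11.62 and 11.77 in InvCREER and 12.38 and 12.41 in K14CREER, so both defining basal genes were bright on all 4 arrays. The suprabasal keratin genes Krt1 and Krt10 were bright on all 4 arrays as well, Krt10 at 14.07 and 14.11 in InvCREER and 13.31 and 13.44 in K14CREER. The arrays also differed in signs of other cells and of the mice. InvCREER 1 stood apart with Xist at 12.56, against 8.26 on InvCREER 2 and 7.25 and 5.44 in K14CREER, and with the Y-linked gene Uty at 4.70, against 7.85 on InvCREER 2 and 7.19 and 7.48 in K14CREER. Its Actb probe sets differed most between the 3' and 5' ends of the transcript, a sign of RNA quality, by 1.24 in log2 units, against 0.77 on InvCREER 2 and 0.94 and 0.68 in K14CREER.

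Sequences before the start sites of 4 subunits are shown because these genes lie at the ends of the range of differences described below, Itgb1 and Itga2 lower and Itgb5 and Itgb8 higher in InvCREER. The windows are the 250 bases before the RefSeq start site on GRCm38.p6, read 5' to 3' on the gene's strand: chr8:128685404-128685653 on the plus strand for Itgb1, chr13:114932101-114932350 on the minus strand for Itga2, chr16:33829415-33829664 on the plus strand for Itgb5 and chr12:119238277-119238526 on the minus strand for Itgb8. Capitals mark matches on either strand to any of 5 motifs: the GC box GGGCGG, the CCAAT box CCAAT, the AP-1 site TGANTCA, the TEAD site GGAATG and the TATA box TATAAA. No matches overlapped in these 4 windows.
Itgb1: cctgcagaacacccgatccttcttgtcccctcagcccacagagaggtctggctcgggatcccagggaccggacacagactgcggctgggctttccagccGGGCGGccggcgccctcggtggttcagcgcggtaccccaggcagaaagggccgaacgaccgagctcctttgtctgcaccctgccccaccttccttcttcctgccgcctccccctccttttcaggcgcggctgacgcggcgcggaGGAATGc
Itga2: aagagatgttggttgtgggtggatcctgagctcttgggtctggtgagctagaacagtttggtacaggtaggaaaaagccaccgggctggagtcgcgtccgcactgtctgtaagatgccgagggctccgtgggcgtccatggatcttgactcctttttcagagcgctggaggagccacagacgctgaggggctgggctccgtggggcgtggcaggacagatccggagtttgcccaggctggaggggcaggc
Itgb5: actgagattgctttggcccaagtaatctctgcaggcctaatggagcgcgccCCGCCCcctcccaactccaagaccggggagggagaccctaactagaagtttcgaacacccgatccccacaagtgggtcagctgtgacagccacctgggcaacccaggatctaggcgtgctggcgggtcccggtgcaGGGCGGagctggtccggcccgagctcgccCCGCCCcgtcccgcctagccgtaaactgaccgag
Itgb8: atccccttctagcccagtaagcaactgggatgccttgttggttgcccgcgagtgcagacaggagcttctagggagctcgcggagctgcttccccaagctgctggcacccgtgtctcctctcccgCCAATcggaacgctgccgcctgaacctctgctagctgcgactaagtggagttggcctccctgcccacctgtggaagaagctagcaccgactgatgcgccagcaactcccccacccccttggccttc

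The Itgb1 window held 1 GC box, 151 bases before the start, and 1 TEAD match, 7 bases before it. The Itgb5 window held 3 GC boxes and the Itgb8 window 1 CCAAT box, while none of the 5 motifs was found in the Itga2 window. Over the 32851 windows of all genes, 32.7% held the GC box, 33.8% the CCAAT box, 6.7% the AP-1 site, 12.6% the TEAD site and 12.4% the TATA box. The 10 members had 13 windows in all, of which 6 held a GC box, 2 a CCAAT box, 1 a TEAD match and none an AP-1 site or a TATA box. The 4 windows shown were 60.8% to 68.0% G or C, against a median of 52.4% over all windows. These matches describe letters only, and were set against no binding data.

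Basal cells marked by InvCREER had lower values of Itgb1, Itga2, Itga3, Itgb6 and Itgav than those marked by K14CREER, and higher values of Itgb5 and Itgb8. Both arrays of one line lay beyond both of the other for each of these 7 genes. None was called by limma over all probe sets, though Itgb1 and Itga2 lay just above the threshold. Of the 9 members with a named probe set 0 were called, against 0.824% of all 18193 named genes without the filter on dim probe sets. Without overlap between the lines there were 6 lower and 2 higher in InvCREER, against 22.5% lower and 19.0% higher over the same genes. The 6 include Itga9, which was dim on every array and whose lines were only 0.06 apart at their nearest arrays. The median difference of the 9 members was -0.53, against -0.02 over all named genes.

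Of the 9, 8 passed the filter and Itga9 did not. Itga2 and Itgb6 passed through K14CREER alone, since their InvCREER means lay under 5.42, so counts over the tested members only describe them. Among the 8 tested members, 7 had an unadjusted p under 0.05, against 16.1% of the 11270 tested genes. They were 5 lower and 2 higher in InvCREER, against 8.54% lower and 7.58% higher over the tested genes, and 0 were called, against 1.33%. The number called moved with the array left out, as did the number over all tested probe sets, both given below. The median of the 8 was -0.88 without InvCREER 1, -0.75 without InvCREER 2, -0.72 without K14CREER 1 and -0.90 without K14CREER 2. With 2 arrays per line an exact permutation test cannot give a 2-sided p under 0.333, so no such test was run for single genes.

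**Figure D1:**
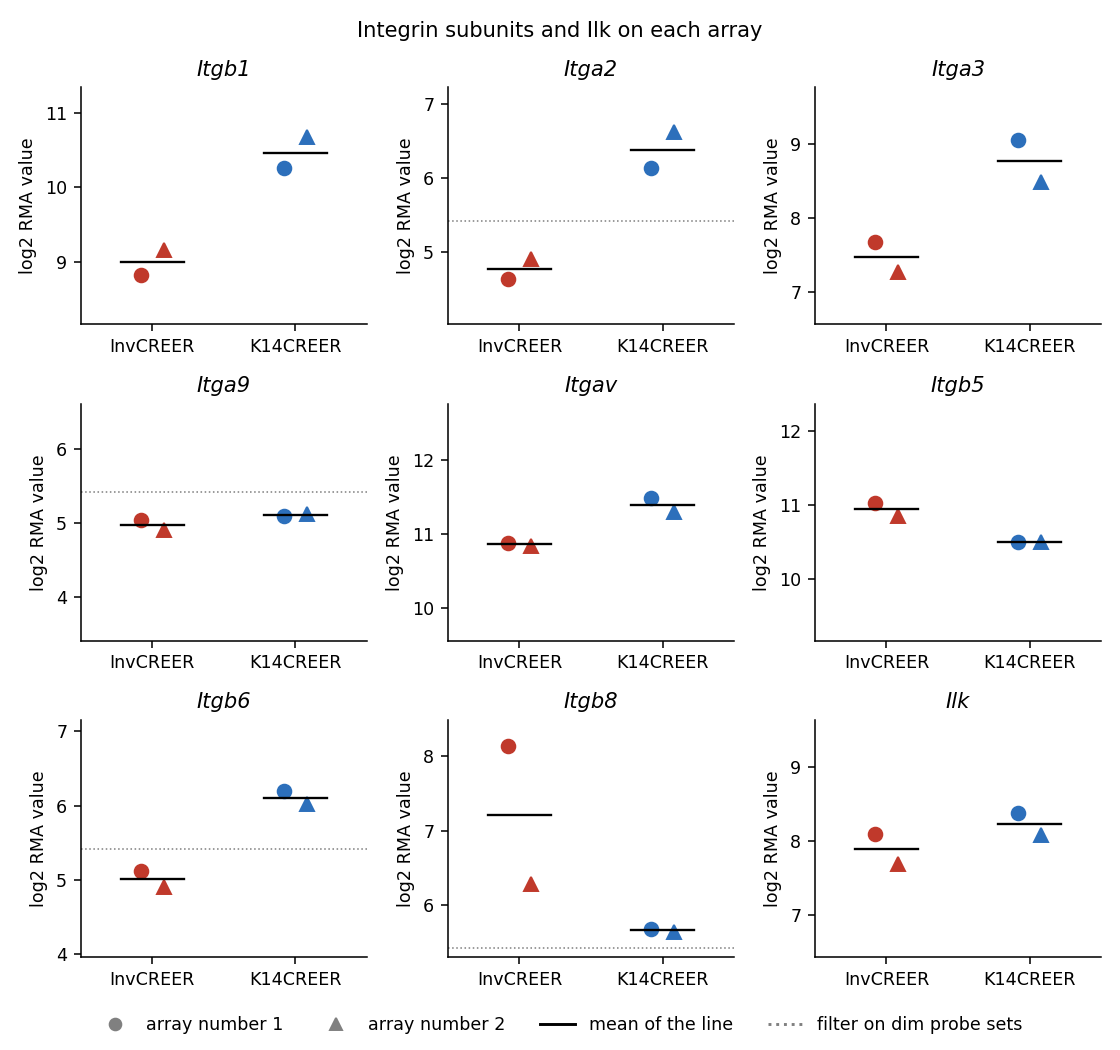
Log2 RMA values of the 9 members with a named probe set on each array (InvCREER red, K14CREER blue, circles array number 1, triangles number 2), with the mean of each line as a bar and the filter value of 5.42 as a dotted line where it falls in the panel. Every panel spans the same log2 range: Itgb1 lies at 8.82 and 9.15 in InvCREER and 10.26 and 10.68 in K14CREER, while Itgb8 is spread from 6.28 to 8.14 in InvCREER.

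Itgb1, the beta subunit shared by the collagen, laminin and tenascin receptors, was at 8.82 and 9.15 in InvCREER and at 10.26 and 10.68 in K14CREER. The groups were 1.11 apart at their nearest arrays, on the log2 scale. The mean was 8.99 ± 0.23 in InvCREER and 10.47 ± 0.30 in K14CREER (SD, n = 2 per line), a difference of -1.48 (SE 0.23, 95% interval -2.03 to -0.93, adjusted p = 0.0516 by limma), or 35.8% of the K14CREER level. Only 0.657% of tested genes had a lower difference. The 2 other tested Itgb1 probe sets were lower too, at -1.38 (adjusted p = 0.0611 by limma) and -0.65 (adjusted p = 0.333 by limma). The remaining 3 lay at or below 4.55 on every array, near the floor of the scale, with differences of -0.08 to -0.54. Itgb1 crossed the threshold without either InvCREER array, at -1.32 without InvCREER 1 (adjusted p = 0.0276 by limma) and -1.64 without InvCREER 2 (adjusted p = 0.00447 by limma). It did not without either K14CREER array, at -1.69 without K14CREER 1 and -1.27 without K14CREER 2 (adjusted p = 0.0951 and 0.160 by limma).

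Itga2, the alpha subunit of the collagen receptor alpha2beta1, had 1 probe set and was at 4.64 and 4.91 in InvCREER and at 6.14 and 6.62 in K14CREER. Both InvCREER arrays lay below the filter value and both K14CREER arrays above it, so background limits the size of the difference. It was -1.61 (SE 0.26, 95% interval -2.23 to -0.98, adjusted p = 0.0540 by limma), or 32.8% of the K14CREER level. Without InvCREER 1 it was -1.47 (adjusted p = 0.0438 by limma) and without InvCREER 2 -1.75 (adjusted p = 0.0102 by limma), while without K14CREER 1 it was -1.84 and without K14CREER 2 -1.37 (adjusted p = 0.0771 and 0.130 by limma).

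Itga3, the alpha subunit of the laminin receptor alpha3beta1, was at 7.68 and 7.27 in InvCREER and at 9.06 and 8.49 in K14CREER, without overlap. Its difference was -1.30 (SE 0.29, adjusted p = 0.108 by limma), or 40.7% of the K14CREER level. Its 2 other probe sets were also lower, at -0.79 and -0.27, so the size depended on the probe set, and the mean of the 3 was -0.79 (adjusted p = 0.118 by limma). Itga9, the subunit that binds tenascin and fibronectin as alpha9beta1, was under the filter on every array, at 5.04 and 4.90 in InvCREER and 5.10 and 5.11 in K14CREER, so it was not tested. Its 2 other probe sets were also under the filter, with differences of 0.00 and 0.03.

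Itgav, the alpha subunit common to the beta5, beta6 and beta8 receptors, was at 10.89 and 10.84 in InvCREER and at 11.48 and 11.30 in K14CREER. The groups did not overlap, and the spread within each line was small. Its difference was -0.53 (SE 0.14, 95% interval -0.88 to -0.19, adjusted p = 0.159 by limma), or 69.2% of the K14CREER level. The other tested Itgav probe set was at -0.51 (SE 0.22), and the 3 untested ones at -0.04 to 0.33.

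The 3 beta partners of alphav went different ways. Itgb6, the beta subunit induced in wounded epithelium, was at 5.12 and 4.91 in InvCREER and at 6.20 and 6.02 in K14CREER. Both InvCREER arrays again lay below the filter value. Its difference was -1.09 (SE 0.22, 95% interval -1.63 to -0.56, adjusted p = 0.0886 by limma). Its other probe set was under the filter on every array, with a difference of -0.06.

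Itgb5, whose alphavbeta5 pair binds vitronectin, was at 11.03 and 10.86 in InvCREER and at 10.50 on both K14CREER arrays. Its difference was 0.44 (SE 0.15, 95% interval 0.07 to 0.81, adjusted p = 0.265 by limma), or 136% of the K14CREER level. All 4 Itgb5 probe sets were tested and all were higher in InvCREER without overlap, by 0.32 to 0.57. None was called.

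Itgb8, the beta subunit of a latent TGF-beta receptor, had 1 probe set and was at 8.14 on InvCREER 1 and 6.28 on InvCREER 2, against 5.67 and 5.64 in K14CREER. The 2 InvCREER arrays differed from each other by more than InvCREER 2 differed from K14CREER. The difference was 1.56 (SE 0.57, 95% interval 0.19 to 2.93, adjusted p = 0.290 by limma). Without InvCREER 1 it was 0.63 (adjusted p = 0.562 by limma), and without InvCREER 2 it was 2.49 (adjusted p = 0.000849 by limma), the lowest and highest over the alternatives. InvCREER 1 was also the array that stood apart in the sex-linked genes Xist and Uty, and it had the highest Langerhans and myeloid markers. Over 7 tested genes the mean of these markers was 8.06 on InvCREER 1, 6.57 on InvCREER 2 and 5.84 and 5.51 in K14CREER. The mean of 10 tested sebaceous gland markers ran the same way, at 11.18 on InvCREER 1, 9.62 on InvCREER 2 and 8.43 and 7.94 in K14CREER. All 7 and all 10 had higher means in InvCREER. Of these Cd207, Ctss and Scd3 passed the filter through InvCREER alone, with K14CREER means of 5.07, 4.33 and 5.24. The counts thus only describe the markers. The part of Langerhans, myeloid and sebaceous cells in the Itgb8 difference was not tested. The Langerhans cell gene Cd207 was at 6.77 on InvCREER 1, 5.74 on InvCREER 2 and 5.16 and 4.99 in K14CREER. The pan-leukocyte gene Ptprc, with Cd68, Fcer1g and Tyrobp, had a mean under the filter. Among these Tyrobp, Ptprc and Fcer1g were higher in InvCREER, by 0.90, 0.60 and 0.27, Tyrobp alone without overlap. The macrophage gene Cd68 was lower in InvCREER without overlap, at 4.89 and 5.04, against 5.51 and 5.86 in K14CREER.

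Ilk, which joins beta tails to actin, was at 8.10 and 7.69 in InvCREER and at 8.38 and 8.09 in K14CREER. It was the 1 tested member whose groups overlapped, with a difference of -0.34 (SE 0.26, 95% interval -0.96 to 0.28, adjusted p = 0.680 by limma). An Ilk level in InvCREER from 0.96 lower to 0.28 higher on the log2 scale thus lay within that interval.

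**Figure D2:**
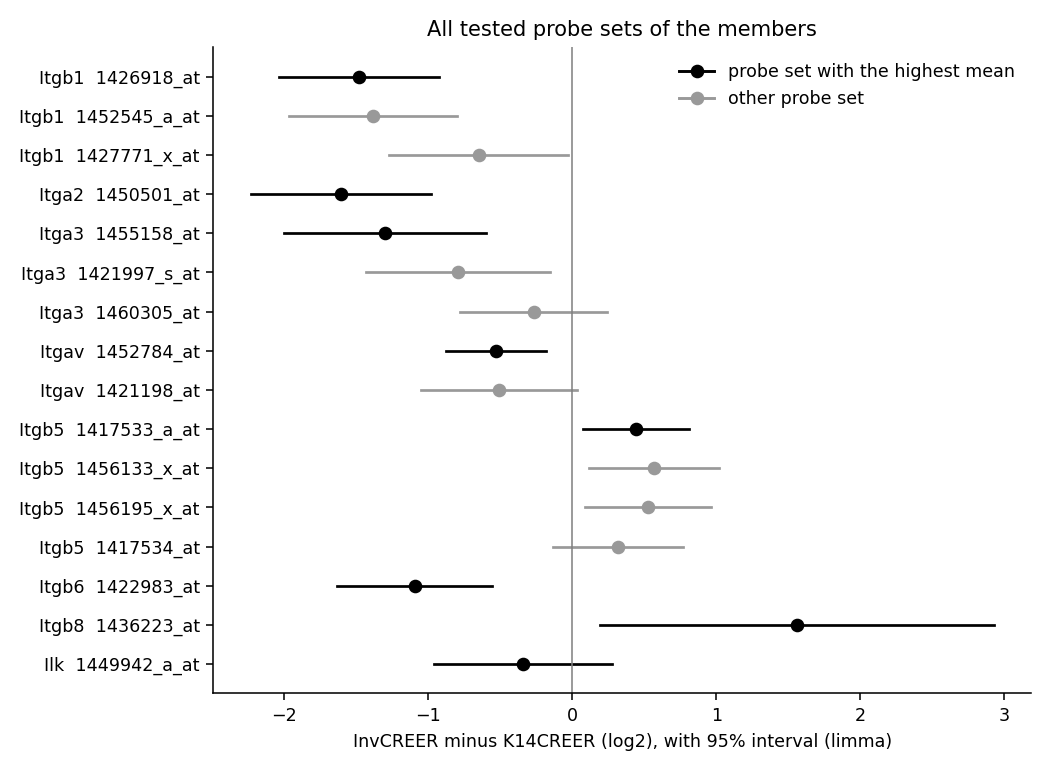
Difference InvCREER minus K14CREER in log2 units for the 16 tested member probe sets, with limma's 95% interval, 1 line per probe set (black the brightest probe set of a gene, grey the others). All probe sets of Itgb1, Itga3 and Itgav lie left of 0 and all 4 of Itgb5 right of it, while the interval of Itgb8 is the widest, from 0.19 to 2.93.

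Within a gene the tested probe sets had 1 direction: 11 of the 16 were lower and 5 higher in InvCREER. Of the 16, 15 did not overlap between the lines, against 42.0% of tested probe sets, and 0 were called, against 0.959%. Probe sets of 1 gene are not independent, and 3 of the 16 had InvCREER means under the filter value, so they passed through K14CREER. These counts thus only describe the probe sets. With each array left out in turn all 8 tested members kept the sign of their difference.

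**Figure D3:**
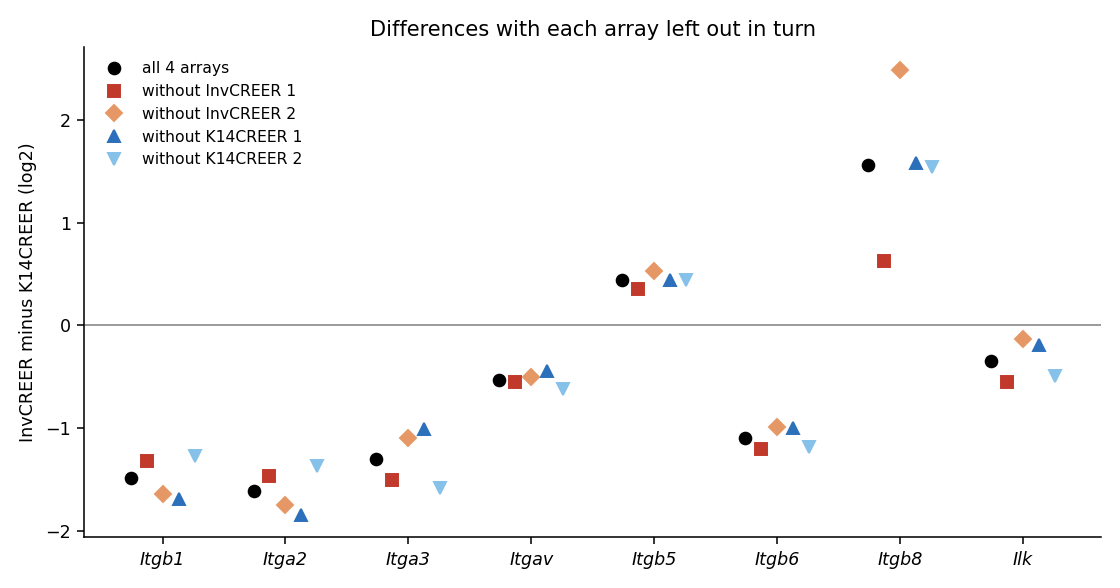
Difference InvCREER minus K14CREER in log2 units for the 8 tested members with all 4 arrays (black) and without each array in turn (coloured). Signs hold in every case, and Itgb8 ranges from 0.63 without InvCREER 1 to 2.49 without InvCREER 2.

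Related genes were read from lists chosen by function. Of 6 other tested integrin subunits 0 were called and 5 had lower means, with a median of -0.43, against -0.01 over all 11270 tested genes. Of the 5, Itga4 and Itga5 passed the filter through K14CREER alone, with InvCREER means of 5.19 and 5.38. The count thus only describes these genes. The list median was -0.23 without K14CREER 2 and -0.12 over all 16 named other subunits, dim ones included. With a stricter filter it was -1.02, but only 2 genes, Itga6 and Itgb4, were then tested. Of the 6 tested in the main fit, 2 had an unadjusted p under 0.05, both lower. These were the hemidesmosome subunits: Itga6 was at -0.70 (SE 0.12, adjusted p = 0.0564 by limma) and Itgb4, its partner, at -1.33 (SE 0.24, adjusted p = 0.0631 by limma). Both were called without InvCREER 2 (adjusted p = 0.0111 and 0.0283 by limma), and Itgb4 without InvCREER 1 (adjusted p = 0.00425 by limma). Itga5, which forms the fibronectin receptor with beta1, was dim at 5.36 and 5.40 in InvCREER and 5.61 and 5.79 in K14CREER, a difference of -0.32 (SE 0.21). Itga1, another collagen-binding partner of beta1, was at 4.17 and 4.21 in InvCREER and 4.38 and 4.16 in K14CREER and was not tested. The leukocyte subunit genes Itgal, Itgam, Itgax, Itgae and Itgb2 were under the filter too, while Itga4 and Itgb7, also found on leukocytes, were tested, at -0.54 (SE 0.40) and -0.17 (SE 0.23) with overlapping groups.

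Of 28 tested genes for cytoplasmic focal adhesion proteins 1 was called: Actn1, which encodes an actin-crosslinking actinin, fell by 1.22 (SE 0.18, adjusted p = 0.0441 by limma), a call lost without either K14CREER array (adjusted p = 0.169 and 0.135 by limma), with dim probe sets kept in the test (adjusted p = 0.0537 by limma) and when its probe sets were averaged (-0.86, adjusted p = 0.0606 by limma). With an array left out the number called moved, as it did over all tested probe sets, and the list median ran from -0.40 to -0.22. The list had 21 lower and 7 higher means, against 51.8% lower over all tested genes, and a median of -0.27. Among the partners of Ilk, Parva, the actin-binding parvin, was at -0.89 (SE 0.27) and Lims1, which encodes PINCH, at -0.52 (SE 0.22). Tln1, the talin that activates integrins, was at -0.75 (SE 0.29) and the scaffold gene Pxn at -0.95 (SE 0.19, adjusted p = 0.0812 by limma, and 0.0444 without InvCREER 1). Vcl, which encodes the talin-binding protein vinculin, was at 0.27 (SE 0.22) with overlapping groups. Fermt2, the kindlin found in many tissues, was under the filter at 4.99 and 4.67 in InvCREER and 4.83 and 4.88 in K14CREER, and Ptk2 was not analysed here.

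Among 12 tested integrin inactivators and trafficking genes 0 were called, 6 were lower and 6 higher, with a median of 0.02 (up to 0.27 over the alternatives), and 3 had an unadjusted p under 0.05, all higher. The number called moved without InvCREER 1, as it did over all tested probe sets. The inactivator Sharpin was at -0.07 (SE 0.20) and Itgb1bp1, which competes with talin for the beta1 tail, at -0.31 (SE 0.29). Among 12 tested membrane partners 9 had lower means, against 51.8% of all tested genes, and 1 was called, against 1.33%. The called gene was Cav1, the caveolin of membrane caveolae, at 10.82 and 10.79 in InvCREER and 12.09 on both K14CREER arrays. It was lower by 1.29 (SE 0.12, adjusted p = 0.0148 by limma). That call was lost without K14CREER 1 (adjusted p = 0.0658 by limma), without K14CREER 2 (adjusted p = 0.0574 by limma) and, as for the other called genes of these lists, without the variance trend (adjusted p = 0.0693 by limma). The list median was -0.18 (-0.07 without InvCREER 1), with Cd151, the tetraspanin bound to alpha3beta1, at -0.77 (SE 0.15, adjusted p = 0.0800 by limma). Slc3a2, which binds beta tails, was at -0.88 (SE 0.25) and the hyaluronan receptor gene Cd44 at 0.44 (SE 0.20).

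The ligand list had a median of -1.14, with 12 of 13 tested genes lower, 8 of them at an unadjusted p under 0.05, and 1 called. Of the 12, Fn1 passed the filter through K14CREER alone, with an InvCREER mean of 4.97, so the count only describes these genes. With an array left out the number called moved, as it did over all tested probe sets, and the median was -0.75 without K14CREER 1. Over all 21 named ligand genes, dim ones included, it was -0.56. Lamb3, a chain of the laminin that alpha3beta1 binds, was at 9.12 and 8.81 in InvCREER and 11.04 and 10.42 in K14CREER and fell by 1.77 (SE 0.26, adjusted p = 0.0440 by limma), a call lost without K14CREER 1 (-1.46, adjusted p = 0.135 by limma). Lama3, another chain of it, was at -1.25 (SE 0.25, adjusted p = 0.0828 by limma, called without InvCREER 1 or InvCREER 2 at 0.0143 and 0.0381). Tnc, the tenascin-C gene, was at 6.67 and 6.30 in InvCREER and 9.10 and 7.87 in K14CREER, a difference of -2.01 (SE 0.42, adjusted p = 0.0961 by limma). It was called without InvCREER 1, InvCREER 2 or K14CREER 2 (adjusted p = 0.0228, 0.0388 and 0.0382 by limma) and was at -1.39 without K14CREER 1. Npnt, which encodes nephronectin, a basement membrane protein, was at -1.14 (SE 0.24). Fn1, the fibronectin gene, was at 5.15 and 4.80 in InvCREER and 7.02 and 5.21 in K14CREER, a difference of -1.15 (SE 0.56), and of -0.24 without K14CREER 1.

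Tested markers of dermal fibroblasts, cells outside the gate that also express beta1 integrin, had lower means in InvCREER by unequal amounts. Their mean over 6 tested genes was 7.14 and 6.86 in InvCREER and 8.26 on K14CREER 1 and 7.68 on K14CREER 2. All 6 had lower means, 3 of them without overlap, and 1, Sparc, was called. Differences ran from -2.36 for Sparc and -1.87 for Dcn to -0.33 for Col1a2 and -0.07 for Vim. Sparc was at 9.73 and 9.85 in InvCREER and at 12.19 and 12.11 in K14CREER. The fibroblast genes Col1a1, Col3a1, Pdgfra, Lum and Dpt had means under the filter, and of these Dpt was higher in InvCREER, by 0.11. Col3a1 was at 4.43 and 3.73 in InvCREER and 6.12 on K14CREER 1 and 3.95 on K14CREER 2. The part of fibroblasts in the integrin differences was not tested. Markers of spinous and granular cells moved the other way: all 10 tested genes had higher means in InvCREER, 8 of them called, and their mean was 11.57 and 11.79 in InvCREER and 9.99 and 10.18 in K14CREER. The part of the suprabasal cells in the integrin differences was not tested.

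All 12 tested genes for TGF-beta, its latent complex, receptors and Smads had lower means in InvCREER, with a median of -0.58. Over all 14 named genes, dim ones included, the median was -0.49, and the untested Tgfb3 and Ltbp2 were higher, by 0.39 and 0.07. Of the 12 tested, 0 were called, while 7 had an unadjusted p under 0.05. The number called moved when either InvCREER array was left out, as it did over all tested probe sets. Tgfb1, a ligand that alphavbeta6 and alphavbeta8 release, was at 5.35 and 5.41 in InvCREER and 6.44 and 6.38 in K14CREER. Its difference was -1.03 (SE 0.21, adjusted p = 0.0922 by limma). Both InvCREER arrays lay under the filter value, so Tgfb1 passed through K14CREER alone. Its other probe set, not tested, was at -0.18 with overlapping groups. Tgfb2 was at -0.62 (SE 0.22), and Ltbp1, which holds latent TGF-beta in the matrix, at -0.25 (SE 0.28) with overlapping groups.

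**Figure D4:**
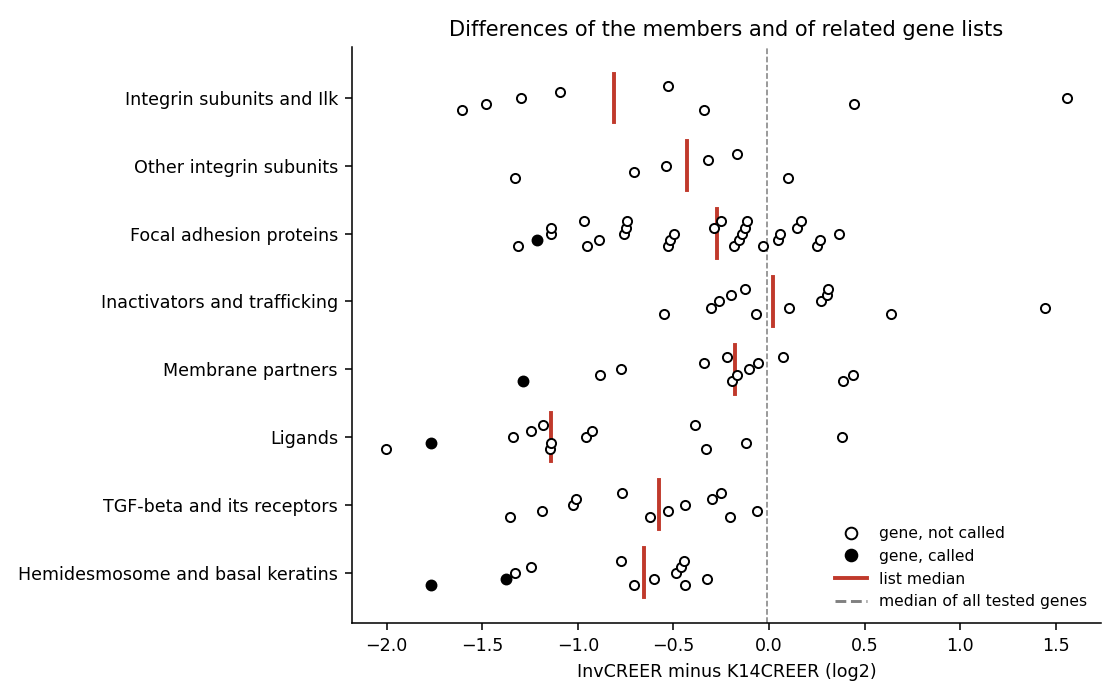
Difference InvCREER minus K14CREER in log2 units for each tested gene of the members and of 7 related lists (filled where called by limma), with the list median in red and the median of all tested genes as a dashed line at -0.01. The member genes span -1.61 to 1.56, and the list median of the ligands lies at -1.14, or at -0.56 with dim genes included; some genes stand in 2 lists.

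The members were set beside the hemidesmosome and basal keratin list, which holds the integrin of the gate. Of its 12 tested genes all had lower means, with a median of -0.65, a lowest difference of -1.77 and a highest of -0.33. Of these 2 were called, Lamb3 and the basal keratin gene Krt15, which was lower by 1.38 (SE 0.15, adjusted p = 0.0212 by limma). The call of Krt15 was lost without K14CREER 1. With an array left out the number called moved, as it did over all tested probe sets, and the list median ran from -0.68 to -0.63. The tested members had 6 genes with lower and 2 with higher means and a median of -0.81, which was -0.53 over all 9 named members, while the hemidesmosome list stayed at -0.65 without a filter. The difference between the lists was not tested.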

How the data were processed

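Total RNA (100 ng per array) from sorted cells was amplified and labelled from the 3' end, per the labels' protocols. The authors deposited log2 values, for which the submitters' processing notes name RMA and Affymetrix Expression Console 1.1. RMA gives the arrays a common distribution. Differences of bright probe sets can be compressed on arrays, background limits those of dim ones, and the number of arrays limits the precision. Of 45101 probe sets 64 controls were left out, and 22519 of the other 45037 reached the filter. Names came from the platform annotation, updated by Entrez number through a RefSeq table (GRCm38.p6, names alone): 34945 probe sets had 1 symbol, 932 several and 9160 none here, and none was named from several.

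The lines were compared in R 4.3.3 by limma 3.58.1 (lmFit, eBayes with a mean-variance trend, 2-sided, no block), fitted on all tested probe sets and checked on simulated data. The members and gene lists were chosen with earlier results of these data known. Named genes were all members, every called gene of the related lists, and others fixed by function (such as Tln1, Pxn and Tnc), with Krt14, Ivl, Itga6, Itgb4, Cd34, Xist, Uty, Kdm5d and Eif2s3y as checks. Ivl and Cd34 had means under the filter, but not every array lay under it. Ivl was at 4.78 and 5.06 in InvCREER and at 4.58 and 6.23 in K14CREER. Cd34, which the sort selected against, was at 3.88 and 3.66 in InvCREER, 6.07 on K14CREER 1 and 3.59 on K14CREER 2. Kdm5d and Eif2s3y were lowest on InvCREER 1, at 5.04 and 7.49. Lists of T cell, endothelial, melanocyte and follicle markers had median differences of -0.14, -0.23, -0.07 and -0.27, over 4, 2, 5 and 8 tested genes. Single genes differed more. T cell markers ran from -1.81 for Thy1 to -0.0024 for Cd3e. Follicle markers ran from -1.79 for Lgr6, which was called (adjusted p = 0.0292 by limma), to 1.98 for Krt79. Alternatives covered filter, variance model, array weights, scaling, block, each array left out, unit of testing, probe set kind and threshold. Promoters are RefSeq's. Figures were drawn with matplotlib 3.10.9.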

Additional observations from a re-analysis of the deposited data

How the results depend on the processing

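All 8 tested members kept the sign of their difference under each alternative that could give a value, and the median of the members ran from -1.09 to -0.53. The number of members called, 0 in the fit reported, was not stable: 1 with the stricter filter, 1 with arrays centred on the tested median, 1 without probe sets of several transcripts, 3 with the mean of the probe sets of a gene, 4 with 1 probe set per gene, 3 at a threshold of 0.10, and 0 to 3 with an array left out. With 1 probe set per gene these were Itgb1, Itga2, Itga3 and Itgb6 (adjusted p = 0.0181, 0.0166, 0.0454 and 0.0306 by limma). Adjusted p over the alternatives ran from 0.00447 to 0.160 for Itgb1, from 0.0102 to 0.130 for Itga2, from 0.0166 to 0.330 for Itga3 and from 0.0306 to 0.241 for Itgb6. With no filter, without the trend, with robust eBayes and with array weights 0 were called. The stricter filter left 5 members tested, and the fit without probe sets of several transcripts 7. Calls over all probe sets or genes at these settings are given in the next paragraphs.

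Over all probe sets the 216 calls of 22519 tested became 405 of 11260 with the stricter filter, 122 of 22519 without the trend and 692 of 22519 at a threshold of 0.10. Per gene there were 450 calls of 11270 with the mean of the probe sets of a gene and 551 of 11270 with 1 probe set per gene. Centring the arrays on the tested median gave 258 of 22519, and leaving out probe sets of several transcripts 184 of 16277. Leaving out InvCREER 1 gave 499, InvCREER 2 981, K14CREER 1 82 and K14CREER 2 143. The spread of the lone array left in a line is then taken from the other line. Differences near 0 changed sign for Sharpin without probe sets of several transcripts (0.062), for Itgb1bp1 without InvCREER 1 (-0.63 to 0.024 over the arrays left out) and for Ltbp1 without K14CREER 1 (-0.55 to 0.048), and the cause was not tested.

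With the array number as a replicate block there were 1390 calls of 22519 tested probe sets and 3 called members, Itgb1, Itga2 and Itga3. The labels do not say what the numbers share, and the difference between number 1 and number 2 correlated between the lines at r = 0.38 across tested probe sets, which are not independent replicates. Array weights gave 216 calls, as many as the fit reported. Probe sets under the filter, such as those of Itga9, carry little signal over background.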

Other observations

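Some genes outside the naming rule are given here as values, chosen after their values were seen. Rab25, a small GTPase that recycles integrins in epithelial cells, was at 10.51 and 11.54 in InvCREER and 9.41 and 9.75 in K14CREER, a difference of 1.45 (SE 0.34, adjusted p = 0.122 by limma). The recycling genes Rab11a and Arf6 were at 0.64 (SE 0.22) and 0.31 (SE 0.11), so that the 3 trafficking genes with an unadjusted p under 0.05 all had higher means in InvCREER. None of the 3 was called.

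Among the focal adhesion genes Rsu1, which binds PINCH in the Ilk complex, was at 8.43 and 8.56 in InvCREER and 9.72 and 9.55 in K14CREER, a difference of -1.14 (SE 0.20, adjusted p = 0.0622 by limma), against -0.34 for Ilk itself. The tensin gene Tns1 was at -1.31 (SE 0.29), Tns2 at -0.74 (SE 0.22) and Tns3 at -1.14 (SE 0.21, adjusted p = 0.0691 by limma), while Tns4 was at -0.14 (SE 0.27) with overlapping groups. None of these was called, and the differences between the genes were not tested.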
